A study of Homo sapiens with 8 samples.

Results

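The genes of the aminoacyl-tRNA synthetases were followed by RNA sequencing in MHCC-97H, a line of human hepatocellular carcinoma cells, kept for 24 hours in lenvatinib. This drug blocks receptor tyrosine kinases, among them the receptors of VEGF and FGF. The 37 genes were taken by symbol from the 20263 genes of the expression table: 20 encode cytosolic enzymes, or their subunits, and 17 encode mitochondrial enzymes, whose symbols end in 2. The table uses older symbols for most cytosolic members (AARS for AARS1, KARS for KARS1), and these are kept here. There is 1 lenvatinib library at each of 40, 60, 80 and 100 µM, and there are 4 libraries of cells given DMSO, the solvent, as the control. All 8 libraries come from the same line, grown in the same serum-containing medium, with no genetic change. Whether the 4 DMSO libraries are separate cultures is not stated in the labels. The spread behind each p-value is thus that between libraries alone, and may be technical. Where a fit pools doses, differences between those doses count as spread too.

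A synthetase joins an amino acid to its own tRNA, the step that sets the genetic code, and both the cytosol and the mitochondrion need a full supply of charged tRNA. Most amino acids have a separate nuclear gene for each compartment, while GARS and KARS encode the glycyl and lysyl enzymes of both and were counted as cytosolic. When uncharged tRNA builds up or the endoplasmic reticulum is under stress, eIF2α kinases such as GCN2 (EIF2AK4) slow general translation and raise the translation of ATF4. This transcription factor is known to induce a set of cytosolic synthetase genes together with amino acid transporters and biosynthetic enzymes such as asparagine synthetase (ASNS).

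The libraries held between 10181973 counts, at 60 µM, and 37384578 counts, at 80 µM, and the DMSO libraries held 30635814 to 34240835. The main axis between libraries, 84.5% of the variance of the log2 values, followed the GC content of genes. The GC slope of a library says by how much its log2 values, relative to the average library, increase with each 10 percentage points of a gene's GC content. It was -0.10, -0.50, -0.99 and 0.28 in DMSO libraries 4, 2, 3 and 1. The slope was 0.67 at 40 µM and 1.82 at 60 µM, both above all DMSO libraries, and -0.58 at 80 µM and -0.60 at 100 µM, both within the DMSO range. The hepatocyte markers ALB, AFP, APOA1, TF, APOB and TTR had 6, 2, 10, 4, 0 and 0 reads at 60 µM and 0 reads in every other library, so these 6 did not bear out the label of a liver line. Other hepatocyte markers had reads: HNF4A, a transcription factor, had 8 to 80 in lenvatinib libraries and 241 to 350 in DMSO libraries, and the fibrinogen gene FGB had 0 to 30 in lenvatinib libraries and 65 to 349 in DMSO libraries. SERPINA1 had 4 to 24 reads over the 8 libraries. The epithelial keratins KRT8 and KRT18 had 45374 to 237904 and 36542 to 159472 reads, and the leukocyte markers PTPRC and CD3E had 0.

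All 37 members passed the filter of at least 1 CPM on average (counts scaled to the library total), the lowest at 10.1 CPM. Levels between genes were compared in the authors' TPM values, which take gene length into account. The cytosolic phenylalanyl subunit FARSA averaged 265 ± 68.5 TPM in the lenvatinib libraries and 294 ± 68.5 TPM in the DMSO libraries (SD, n = 4 each), and the valyl enzyme VARS averaged 262 ± 84.2 TPM in lenvatinib libraries and 264 ± 44.1 TPM in DMSO libraries. The glutaminyl enzyme QARS averaged 273 ± 60.6 TPM in lenvatinib libraries and 249 ± 34.0 TPM in DMSO libraries, so these top 3 members did not differ beyond their spread. Among mitochondrial members the cysteinyl enzyme CARS2 was highest, with 99.6 ± 14.2 TPM in lenvatinib libraries and 122 ± 4.10 TPM in DMSO libraries. The prolyl enzyme PARS2 was lowest in DMSO, with 9.27 ± 1.64 TPM in lenvatinib libraries and 8.09 ± 1.05 TPM in DMSO libraries. The other mitochondrial members lay between these in DMSO. In 12 of 14 amino acids that have 1 cytosolic and 1 mitochondrial gene of the same stem name, the cytosolic gene had the higher mean TPM over the 8 libraries. Summed over members, cytosolic TPM were 4.32, 3.92, 3.85 and 4.31 times mitochondrial TPM in DMSO libraries 1 to 4, and 4.81, 4.94, 4.73 and 4.59 times at 40, 60, 80 and 100 µM. All 4 lenvatinib ratios lay above the DMSO ratios. These ratios have no GC correction and weigh the members with the highest TPM most. DMSO libraries 3 and 2, with the lowest GC slopes (-0.99 and -0.50), also had the lowest ratios. In medians of the log2 difference from the DMSO mean, cytosolic members lay below mitochondrial members at 40 and 60 µM (by -0.23 and -0.30). The part of GC content in the ratios was not tested. In bulk RNA, fewer cells of a kind and less RNA per cell cannot be told apart.

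Over all 4 doses, no synthetase was called. With the 4 lenvatinib libraries set against the 4 DMSO libraries in edgeR, 0 of 37 members passed a Benjamini-Hochberg adjusted p under 0.05, and 0 of 11827 tested genes did (0%). KARS, the lysyl enzyme, was the 1 member with an unadjusted p under 0.05, against 4.42% of all tested genes. DESeq2 and limma-voom also called 0 members, beside 0.795% and 0% of genes. The log2 fold change of KARS was -0.88 ± 0.35 (SE), with an edgeR adjusted p of 0.874. The median log2 fold change was -0.35 over the 20 cytosolic members, -0.44 over the 17 mitochondrial members and -0.11 over all tested genes. KARS was also the 1 member whose 4 lenvatinib libraries all lay on 1 side of the DMSO libraries without overlap under both TMM and total-count scaling, where 1.08% of tested genes lay below. KARS had 138 and 153 CPM at 80 and 100 µM, against 243, 211, 200.4 and 268 CPM in DMSO libraries 1 to 4. It had 155 and 55.7 CPM at 40 and 60 µM, so 60 µM was the lowest library and the groups did not overlap. A log2 slope over the 4 doses, per 20 µM, was called for 0 members and for 0% of tested genes by edgeR and by limma-voom. In edgeR only the aspartyl enzyme DARS had an unadjusted p under 0.05 for that slope (0.99 per 20 µM, adjusted p = 0.295), against 7.4% of genes.

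The members' levels at 40 and 60 µM were ordered by the GC content of their transcripts. Across the 37 members, the log2 deviation from the DMSO mean correlated with GC content at Pearson r = 0.846 at 40 µM and 0.879 at 60 µM, against -0.292 at 80 µM and -0.485 at 100 µM. In DMSO libraries 1 to 4 it was 0.859, -0.712, -0.832 and 0.687. These are descriptions over genes that share 1 library each, with no test. The 13 members under 45% GC had a median log2 deviation of -3.85 at 60 µM, the 12 members from 45% to under 53% had -0.86, and the 12 members at 53% or over had 0.71. At 80 µM these 3 medians were -0.10, -0.12 and -0.30, and at 100 µM they were 0.10, -0.36 and -0.30.

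**Figure D1:**
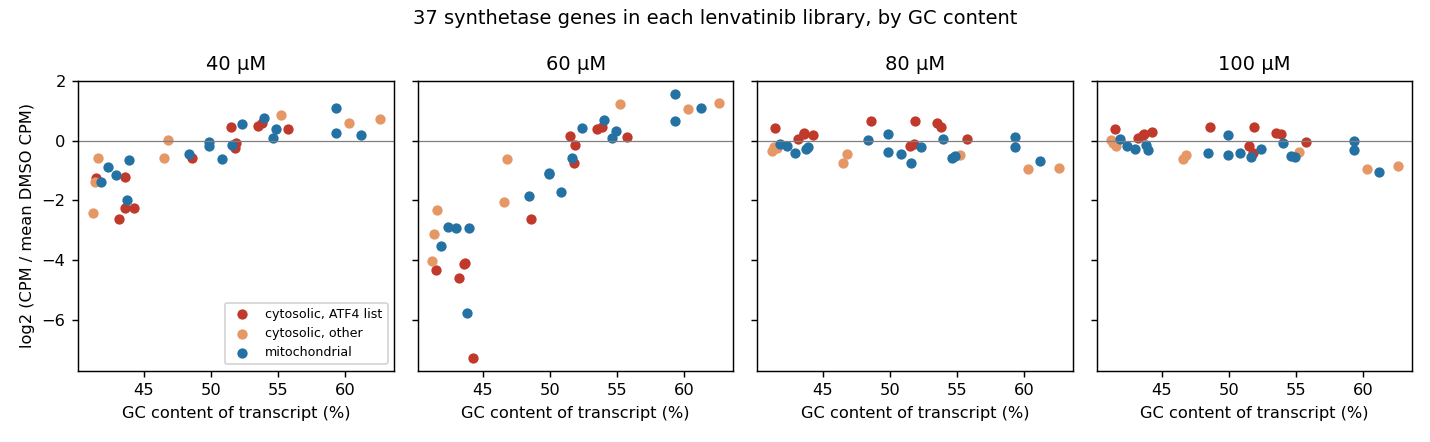
Each point is 1 of 37 synthetase genes. The vertical axis is the log2 ratio of its TMM-scaled CPM in 1 lenvatinib library to its mean CPM over the 4 DMSO libraries, the horizontal axis is the GC content of its longest transcript in percent, and colour marks cytosolic genes in the ATF4 list, other cytosolic genes and mitochondrial genes. At 40 and 60 µM the points climb with GC content, with median deviations of -3.85 under 45% GC and 0.71 at 53% or over at 60 µM. At 80 and 100 µM they do not climb and lie on both sides of 0. The median deviations of the GC classes run from -0.36 to 0.10 at these doses.

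The widest differences were at 60 µM, in the library with the fewest reads. The asparaginyl enzyme NARS, at 44.3% GC, had 2 reads at 60 µM, under the 3 counts that a count of 0 allows. EPRS had 59.1, 166, 315 and 102 CPM in DMSO libraries 1 to 4 and 26.1, 6.60, 167 and 172 CPM at 40, 60, 80 and 100 µM; it encodes the joint glutamyl and prolyl enzyme. IARS2 had 67.2, 160.0, 248 and 97.1 CPM in DMSO libraries 1 to 4 and 36.4, 2.58, 118 and 131 CPM at 40, 60, 80 and 100 µM; it encodes the mitochondrial isoleucyl enzyme. Within DMSO alone, EPRS and IARS2 were highest in library 3 and lowest in library 1, the libraries with the lowest and the highest GC slope of that group. The threonyl enzyme followed the same order: TARS had 77.3, 183, 291 and 113 CPM in DMSO libraries 1 to 4 and 34.8, 9.50, 200.3 and 189 CPM at 40, 60, 80 and 100 µM. LARS had 39.4, 74.9, 113 and 62.04 CPM in DMSO libraries 1 to 4 and 30.4, 3.54, 96.96 and 95.4 CPM at 40, 60, 80 and 100 µM, and this leucyl enzyme was again lowest at 60 µM. The isoleucyl enzyme of the cytosol behaved alike: IARS had 187, 236, 279.7 and 234 CPM in DMSO libraries 1 to 4 and 102, 13.5, 272 and 271 CPM at 40, 60, 80 and 100 µM.

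With each dose set against DMSO in edgeR, where a dose with 1 library borrows its spread from DMSO, 18 members were called at 60 µM, 1 higher and 17 lower, beside 37.2% of all tested genes (11.9% higher and 25.3% lower). At 40, 80 and 100 µM, 0 members and 0% of genes were called, with 5, 1 and 0 members at an unadjusted p under 0.05, against 8.62%, 2.84% and 2.21% of genes. The valyl enzyme of the mitochondrion, VARS2, at 59.3% GC, was the 1 member called higher at 60 µM (1.57 ± 0.45 (SE) on the log2 scale, adjusted p = 0.0445). That direction turned with the GC slope as a covariate (-0.37). The count of 18 fell to 0 with limma-voom, without DMSO library 2 and without DMSO library 4. With the GC slope as a covariate, 26 members were called at 60 µM, all lower, beside 34.7% of genes (28.8% lower), and all 37 members had a negative log2 fold change. Of all 11827 tested genes, 8385 had a negative value in that fit too, and the median over all tested genes was -0.71. The GC slope of the 60 µM library lies far outside those of the DMSO libraries, and that of the 40 µM library (0.67) also lies above them. At both doses this fit thus extends the DMSO trend beyond its range. Over these 26 members, KARS had -2.66 ± 0.27 (SE), FARSA had -1.65 ± 0.18 (SE), GARS had -1.63 ± 0.22 (SE) and LARS2, the mitochondrial leucyl enzyme, had -1.85 ± 0.25 (SE) on the log2 scale. At 40 µM with the covariate, IARS (-0.78 ± 0.14 (SE)) and the mitochondrial seryl enzyme SARS2 (-1.15 ± 0.16 (SE)) were called lower, beside 1.78% of genes called (1.42% lower).

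With the GC slope as a covariate over all 4 doses, 0 members were again called by edgeR, beside 3.26% of genes (1.48% higher and 1.78% lower), and 13 had an unadjusted p under 0.05, against 20.3% of genes. DESeq2 called 14 members with this covariate, beside 17.2% of genes, and limma-voom called 0, beside 7.02% of genes. The median log2 fold change was -0.18 over cytosolic members, -0.35 over mitochondrial members and -0.06 over all tested genes. The highest cytosolic values were those of AARS (0.41), CARS (0.39), MARS (0.35) and GARS (0.23), and the lowest those of KARS (-0.75), FARSA (-0.55) and DARS (-0.52). Of mitochondrial members, VARS2 (0.30), PARS2 (0.14), HARS2 (0.08) and FARS2 (-0.09) were highest, and EARS2 (-0.57), SARS2 (-0.57) and LARS2 (-0.53) lowest. None of these passed the adjusted threshold. Left out in turn, 60 µM changed this count most: without it 15 members were called, 3 higher and 12 lower, beside 23.3% of genes (9.63% higher and 13.7% lower), and without 40 µM 4 members were called, all lower, beside 8.48% of genes.

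At 80 and 100 µM, the libraries whose GC slopes lay within the DMSO range, the family split. In edgeR, with the GC slope as a covariate, 16 members were called against the 4 DMSO libraries, 6 higher and 10 lower, beside 20.7% of 11914 tested genes (9.67% higher and 11% lower). This pairing of doses was given as a result of its own after the data had been seen, and the fit has 3 residual degrees of freedom. An unadjusted p under 0.05 was reached by 20 members and by 35.4% of genes. Of the 12 cytosolic members widely listed as ATF4 targets, 5 rose, 0 fell and 7 were not called, with a median log2 fold change of 0.20. Of the other 8 cytosolic members, 0 rose, 4 fell and 4 were not called, with a median of -0.33. Of the 17 mitochondrial members, 1 rose, 6 fell and 10 were not called, with a median of -0.26, against 0.00 over all tested genes. Without the covariate 0 members and 0% of genes were called, with 4 members (CARS, GARS, KARS and EARS2) at an unadjusted p under 0.05 (7.68% of genes), and the same 3 medians were 0.27, -0.42 and -0.22. With the covariate, the count was 6 without DMSO library 3, beside 6.69% of genes. These 6 were CARS, GARS and MARS, called higher, and FARSA, IARS2 and VARS, called lower. With the 80 or the 100 µM library left out, fewer members were called, but 1 lenvatinib library is then left. The medians of the 3 groups, in the order above, were then 0.18, -0.31 and -0.33 without 80 µM. They were 0.24, -0.40 and -0.23 without 100 µM. Over all 13 alternatives to this fit, the ATF4 list had 0 to 6 members called higher and 0 called lower, and the other cytosolic members had 0 called higher and 0 to 5 called lower.

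**Figure D2:**
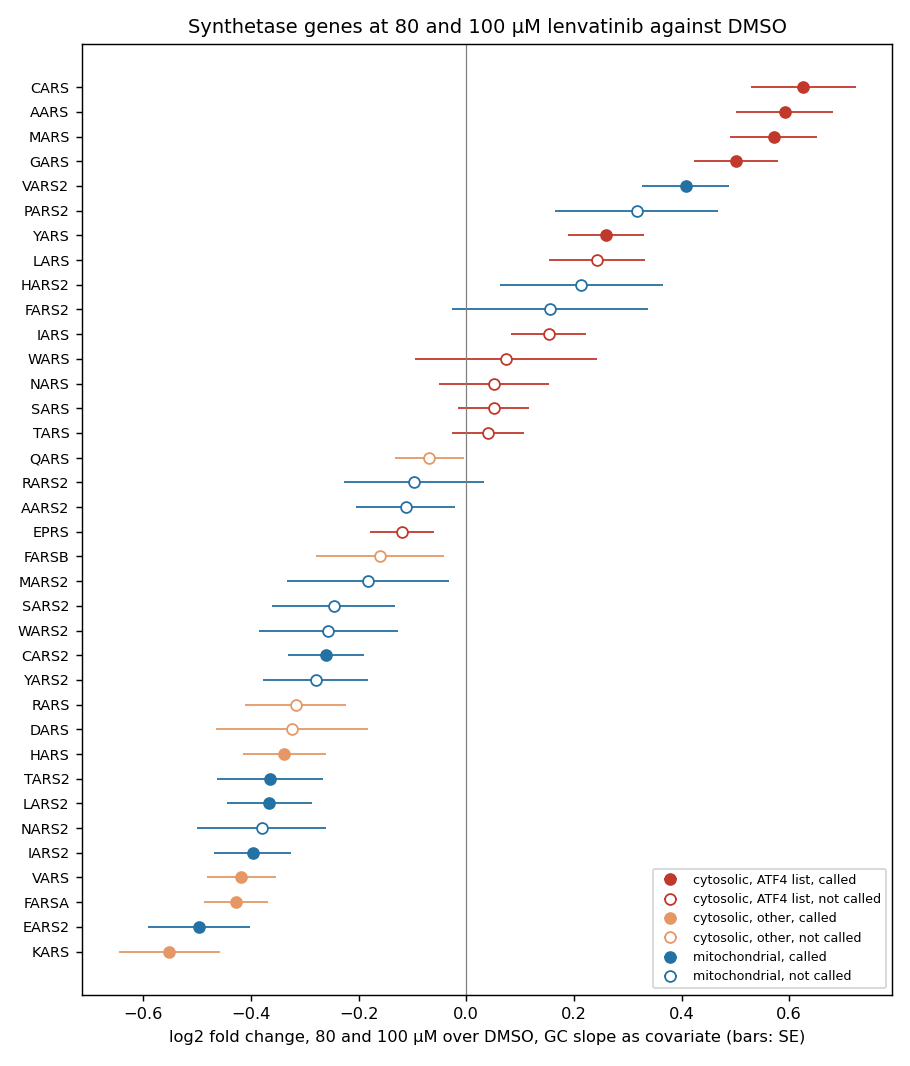
Log2 fold changes of 36 of the 37 synthetase genes at 80 and 100 µM lenvatinib over the 4 DMSO libraries, from edgeR with the GC slope as a covariate, sorted by value. Points are estimates, bars are SE, colour marks the group and filled points are called: 5 of the 6 called higher are cytosolic genes of the ATF4 list, and the 9 plotted genes called lower, from KARS at -0.55 to CARS2 at -0.26, are other cytosolic or mitochondrial genes.

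The 5 cytosolic members that rose at 80 and 100 µM charge tRNA with cysteine, alanine, methionine, glycine and tyrosine. CARS had 93.6 and 81.3 CPM at 80 and 100 µM, against 59.7, 54.5, 57.8 and 64.03 CPM in DMSO libraries 1 to 4. It had 55.8 and 53.1 CPM at 40 and 60 µM, so both high-dose libraries lay above all others. The log2 fold change of CARS, the cysteinyl enzyme, was 0.63 ± 0.10 (SE), a fold of 1.54, with an edgeR adjusted p of 0.00576.

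AARS had 446 and 358 CPM at 80 and 100 µM, against 345, 275, 247 and 314 CPM in DMSO libraries 1 to 4. With 413 and 391 CPM at 40 and 60 µM, the alanyl enzyme had all 4 lenvatinib libraries above the DMSO libraries on this scale. They were not all above when scaled by library totals. The log2 fold change of AARS was 0.59 ± 0.09 (SE), a fold of 1.51, with an edgeR adjusted p of 0.00537.

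GARS had 221 and 195 CPM at 80 and 100 µM, against 112, 141, 173 and 135 CPM in DMSO libraries 1 to 4. The glycyl enzyme had 94.7 and 22.7 CPM at 40 and 60 µM, both below the DMSO range, so the doses did not form 1 group. The log2 fold change of GARS at the 2 high doses was 0.50 ± 0.08 (SE), a fold of 1.42, with an edgeR adjusted p of 0.00579.

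MARS had 175 and 151 CPM at 80 and 100 µM, against 162, 122, 93.00 and 134 CPM in DMSO libraries 1 to 4. The methionyl enzyme had 193 and 176 CPM at 40 and 60 µM. The 100 µM library lay below DMSO library 1, so the high doses and DMSO overlapped on this scale. With the GC slope the log2 fold change of MARS was 0.57 ± 0.08 (SE), a fold of 1.49, with an edgeR adjusted p of 0.00413. Without it the value was 0.38 and was not called. The gene overlaps DDIT3, on the opposite strand, by 982 bases. Library strandedness is not given in the sources used here, so reads of the overlap cannot be assigned to 1 of them, but DDIT3 held 1258 counts over the 8 libraries against 37786 for MARS.

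YARS had 305 and 284 CPM at 80 and 100 µM, against 357, 260.4, 206 and 338 CPM in DMSO libraries 1 to 4. The tyrosyl enzyme had 382 and 317 CPM at 40 and 60 µM, and the high doses lay inside the DMSO range. Its log2 fold change with the GC slope was 0.26 ± 0.07 (SE) (edgeR adjusted p = 0.0382), and it moved between 0.05 and 0.35 over the alternatives tried.

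DMSO library 2 has a GC slope of -0.50, the nearest to those of the high-dose libraries (-0.58 and -0.60). Relative to this 1 library, with no covariate, CARS stood at 1.72 and 1.49 times at 80 and 100 µM, AARS at 1.62 and 1.30, GARS at 1.57 and 1.38, and MARS at 1.43 and 1.24. FARSA stood at 0.647 and 0.655 times, VARS at 0.659 and 0.687, KARS at 0.654 and 0.723, and the mitochondrial glutamyl enzyme EARS2 at 0.604 and 0.695. These 8 genes were chosen from the calls of the fit, which used the same libraries, so the ratios are a description and no check of it. Against all 4 DMSO libraries, on the TMM scale, both high-dose libraries lay above in 3 members (AARS, CARS and GARS; 9.9% of tested genes) and below in 8 (AARS2, EARS2, FARSB, HARS, KARS, LARS2, TARS2 and YARS2; 11.4% of tested genes).

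**Figure D3:**
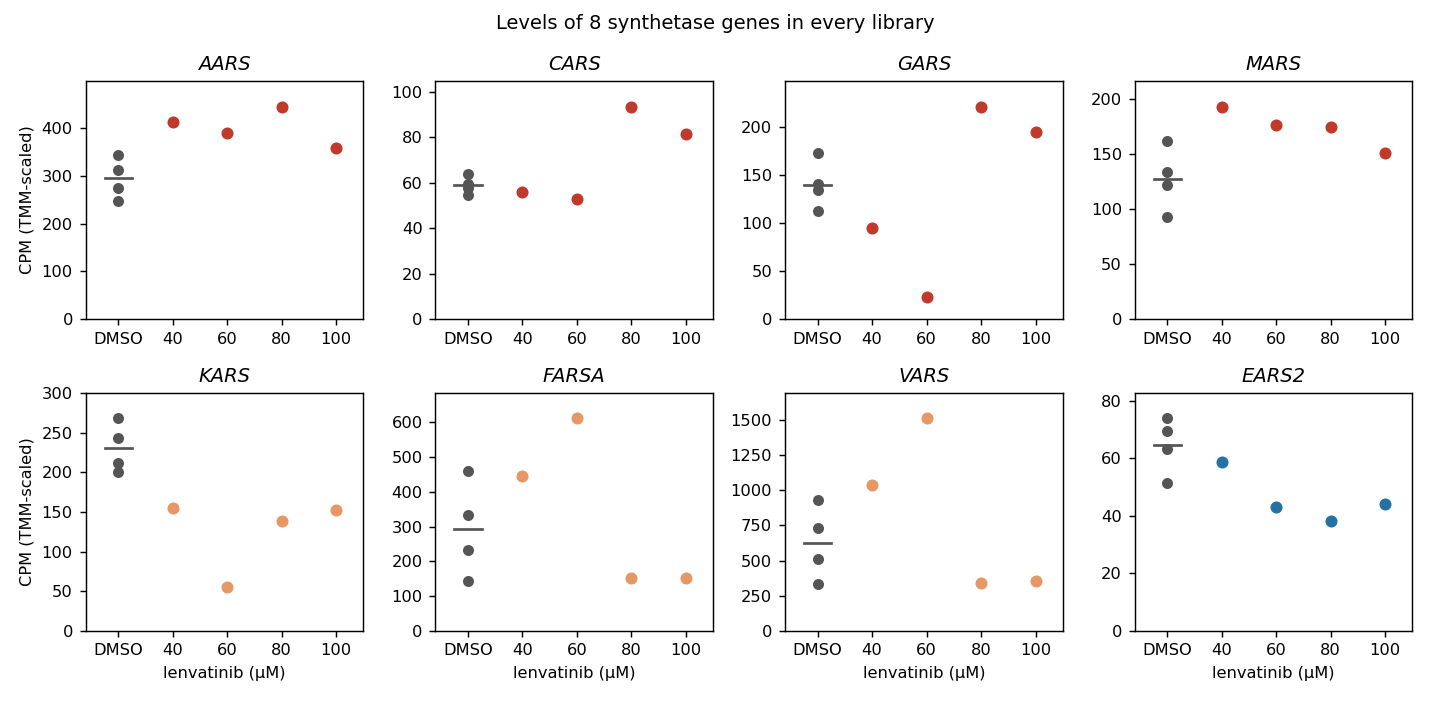
TMM-scaled CPM (vertical axis, linear from 0) of 8 synthetase genes in every library, by lenvatinib dose in µM (horizontal axis). Grey points are the 4 DMSO libraries with their mean as a line, and coloured points are the single library at each dose. CARS and GARS stand above the DMSO points at 80 and 100 µM (CARS at 93.6 and 81.3 CPM), KARS stands below them at every dose, and FARSA and VARS are highest at 60 µM.

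The other 7 members of the ATF4 list were not called at the 2 high doses. LARS had 0.24 ± 0.09 (SE) (edgeR adjusted p = 0.0925) and IARS had 0.15 ± 0.07 (SE) on the log2 scale, and WARS, NARS, SARS and TARS lay between 0.04 and 0.07. EPRS, at -0.12, was the 1 member of the 12 with a negative value. SARS had 272, 201, 168 and 258 CPM in DMSO libraries 1 to 4 and 314, 253, 201 and 200.3 CPM at 40, 60, 80 and 100 µM, with the highest level at 40 µM and the high doses inside the DMSO range. WARS had 187, 102, 99.2 and 181 CPM in DMSO libraries 1 to 4 and 121, 85.3, 134 and 108 CPM at 40, 60, 80 and 100 µM; this tryptophanyl enzyme, an interferon-induced gene, ranged almost as widely within DMSO as over all libraries. NARS had 19.4, 54.3, 99.5 and 26.9 CPM in DMSO libraries 1 to 4 and 10.6, 0.322, 56.7 and 61.8 CPM at 40, 60, 80 and 100 µM. Within DMSO, NARS was highest in library 3 and lowest in library 1, and the high doses lay between them.

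Matches to the C/EBP-ATF response element, the kind of site through which ATF4 acts, were looked for in RefSeq windows from 250 bases before to 50 after an annotated start (GRCh38.p14). Windows were found for 30 of 37 members; AARS2, DARS, LARS, VARS, VARS2 and YARS were among those with no entry. The motif TGATGNAA, read on both strands, was in 7 of 10 members of the ATF4 list with a window (AARS, CARS, GARS, IARS, MARS, NARS and TARS), in 0 of 6 other cytosolic members and in 1 of 14 mitochondrial members (YARS2). It was in 3.62% of all 35116 windows of this length and in 4.46% of 27305 genes. The list was drawn from known ATF4 targets, so this is a description of the list and not a separate line of evidence. The windows of the 4 members with the largest rises are printed in full, 5′ to 3′ along the gene, with the motif in capitals and its position counted at its first base.
AARS, chr16:70289457-70289756, minus strand, motif 187 bases upstream of the start: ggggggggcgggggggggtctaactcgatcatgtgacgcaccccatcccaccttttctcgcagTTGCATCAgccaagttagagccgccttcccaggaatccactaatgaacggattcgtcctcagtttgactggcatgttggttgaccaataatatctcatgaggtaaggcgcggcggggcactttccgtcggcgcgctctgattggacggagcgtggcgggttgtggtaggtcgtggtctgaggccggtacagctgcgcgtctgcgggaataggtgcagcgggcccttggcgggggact
CARS, chr11:3057374-3057673, minus strand, motif 2 bases upstream: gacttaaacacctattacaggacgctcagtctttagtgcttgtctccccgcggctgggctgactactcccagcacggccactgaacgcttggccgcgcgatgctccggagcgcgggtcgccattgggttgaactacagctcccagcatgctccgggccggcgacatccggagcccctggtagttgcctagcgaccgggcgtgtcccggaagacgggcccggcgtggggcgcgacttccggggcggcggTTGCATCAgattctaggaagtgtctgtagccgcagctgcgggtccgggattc
GARS, chr7:30594628-30594927, plus strand, motif 33 bases upstream: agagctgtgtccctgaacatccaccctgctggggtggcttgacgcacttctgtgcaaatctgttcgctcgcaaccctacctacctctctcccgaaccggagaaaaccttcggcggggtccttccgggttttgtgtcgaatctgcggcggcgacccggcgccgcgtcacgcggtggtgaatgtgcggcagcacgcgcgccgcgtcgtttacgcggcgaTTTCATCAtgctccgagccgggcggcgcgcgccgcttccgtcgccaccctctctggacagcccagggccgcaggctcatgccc
MARS, chr12:57487818-57488117, plus strand, motif 4 bases upstream: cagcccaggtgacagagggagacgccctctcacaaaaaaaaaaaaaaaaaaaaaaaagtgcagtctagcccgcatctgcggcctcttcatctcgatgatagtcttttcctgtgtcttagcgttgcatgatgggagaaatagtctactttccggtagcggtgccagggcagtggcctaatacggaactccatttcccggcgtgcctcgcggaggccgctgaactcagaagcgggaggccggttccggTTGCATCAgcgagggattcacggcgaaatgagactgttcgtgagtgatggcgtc

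In IARS, NARS and TARS, which have the motif but were not called at the high doses, it lay 13 bases upstream, 15 bases downstream and 3 bases downstream of a RefSeq start. The sequences around it, again with the motif in capitals, allow a comparison with those of AARS, CARS and MARS, which hold the same 8 letters as IARS and TARS; NARS holds them on the other strand, and GARS differs.
IARS, chr9:92293693-92293720, minus strand: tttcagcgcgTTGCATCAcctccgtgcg
NARS, chr18:57621805-57621832, minus strand: ctacgctctcTGATGCAAcgccggaatc
TARS, chr5:33440957-33440984, plus strand: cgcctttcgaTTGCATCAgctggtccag

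The 8 cytosolic members outside the ATF4 list all had negative log2 fold changes at 80 and 100 µM; under scaling by library totals it was 7 of 8. KARS, whose values are given above, had -0.55 ± 0.09 (SE), a fold of 0.682, with an edgeR adjusted p of 0.00777. FARSA had 151 and 153 CPM at 80 and 100 µM, against 459, 233, 142 and 334 CPM in DMSO libraries 1 to 4. FARSA, the α subunit of the phenylalanyl enzyme, had 445 and 612 CPM at 40 and 60 µM, so it was highest at 60 µM and the high doses lay at the low end of the DMSO range. Its log2 fold change was -0.43 ± 0.06 (SE), with an edgeR adjusted p of 0.00409, and -0.91, not called, without the GC slope. VARS had 337 and 351 CPM at 80 and 100 µM, against 934, 511, 333 and 734 CPM in DMSO libraries 1 to 4. VARS had 1040.5 and 1514 CPM at 40 and 60 µM, again highest at 60 µM, and its log2 fold change at the high doses was -0.42 ± 0.06 (SE) with an edgeR adjusted p of 0.00548, and -0.84, not called, without the GC slope. FARSA and VARS are among the most GC-rich members, at 60.3% and 62.6% GC.

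HARS had 68.8 and 67.1 CPM at 80 and 100 µM, against 109.7, 84.3, 82.3 and 101 CPM in DMSO libraries 1 to 4. The histidyl enzyme HARS had 96.8 and 61.3 CPM at 40 and 60 µM. Both high doses lay below the DMSO range, and its log2 fold change was -0.34 ± 0.08 (SE) with an edgeR adjusted p of 0.0219. It was not called with scaling by library totals (-0.24). RARS, the arginyl enzyme, was just short of the threshold (-0.32 ± 0.09 (SE), edgeR adjusted p = 0.0511) and passed it with DESeq2, limma-voom and DESeq2 size factors. RARS had 35.3, 74.9, 95.2 and 49.96 CPM in DMSO libraries 1 to 4 and 24.6, 7.24, 55.6 and 60.01 CPM at 40, 60, 80 and 100 µM. DARS had -0.32 ± 0.14 (SE) (edgeR adjusted p = 0.146), FARSB, the β subunit of the phenylalanyl enzyme, had -0.16 ± 0.12 (SE), and QARS had -0.07 ± 0.06 (SE). DARS had 11.5, 24.8, 34.3 and 14.5 CPM in DMSO libraries 1 to 4 and 3.93, 1.29, 16.9 and 21.7 CPM at 40, 60, 80 and 100 µM. FARSB had 49.5, 52.2, 52.00 and 63.2 CPM in DMSO libraries 1 to 4 and 36.2, 10.8, 45.8 and 48.5 CPM at 40, 60, 80 and 100 µM, so its 2 high-dose libraries lay just below the DMSO range. QARS had 353, 222, 153 and 290.1 CPM in DMSO libraries 1 to 4 and 463, 604, 185 and 195 CPM at 40, 60, 80 and 100 µM, with the highest level at 60 µM and the high doses within the DMSO range.

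Of the mitochondrial members, 6 fell at 80 and 100 µM, and those described here charge glutamate, isoleucine, leucine, threonine and cysteine. EARS2 had 38.3 and 44.04 CPM at 80 and 100 µM, against 74.04, 63.3, 51.5 and 69.5 CPM in DMSO libraries 1 to 4. EARS2 had 58.8 and 42.98 CPM at 40 and 60 µM, and its log2 fold change was -0.50 ± 0.09 (SE), a fold of 0.709, with an edgeR adjusted p of 0.012. The high doses lay below all DMSO libraries. LARS2 had 59.3 and 60.7 CPM at 80 and 100 µM, against 84.9, 76.99, 80.2 and 77.6 CPM in DMSO libraries 1 to 4. LARS2 had 52.3 and 24.1 CPM at 40 and 60 µM, both also below the DMSO range on this scale. Its log2 fold change at the high doses was -0.37 ± 0.08 (SE) with an edgeR adjusted p of 0.0183. It was not called with scaling by library totals (-0.27).

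IARS2, given above, had -0.40 ± 0.07 (SE) on the log2 scale at the high doses, with both libraries inside its wide DMSO range and an edgeR adjusted p of 0.00998. Without the GC slope it had -0.17 and was not called. TARS2 had 51.2 and 53.1 CPM at 80 and 100 µM, against 94.4, 77.7, 57.8 and 74.4 CPM in DMSO libraries 1 to 4. TARS2, the threonyl enzyme, had 82.1 and 81.8 CPM at 40 and 60 µM, so its high-dose libraries were its 2 lowest. Its log2 fold change was -0.36 ± 0.10 (SE) with an edgeR adjusted p of 0.0382. TARS2 was not called with scaling by library totals (-0.27), nor without DMSO library 1, 2 or 3. CARS2 had 84.00 and 82.6 CPM at 80 and 100 µM, against 156, 106, 82.4 and 139 CPM in DMSO libraries 1 to 4. CARS2 had 161 and 150.2 CPM at 40 and 60 µM, and its log2 fold change was -0.26 ± 0.07 (SE) with an edgeR adjusted p of 0.037. CARS2 overlapped the DMSO range at its low end, and it was not called without the GC slope (-0.51) or with scaling by library totals (-0.17).

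VARS2 was the 1 mitochondrial member called higher. VARS2 had 47.4 and 43.5 CPM at 80 and 100 µM, against 61.9, 37.6, 26.97 and 47.7 CPM in DMSO libraries 1 to 4. VARS2 had 93.1 and 129 CPM at 40 and 60 µM; the high doses lay inside the DMSO range on this scale. With the GC slope its log2 fold change was 0.41 ± 0.08 (SE), with an edgeR adjusted p of 0.0139, and it ranged from 0.09 to 0.50 over the alternatives tried. Its cytosolic counterpart VARS fell in the same fit.

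The remaining mitochondrial members were not called at the high doses. PARS2 (0.32 ± 0.15 (SE)), HARS2 (0.21 ± 0.15 (SE)) and the phenylalanyl enzyme FARS2 (0.16 ± 0.18 (SE)) had positive values, and NARS2 (-0.38 ± 0.12 (SE)), YARS2 (-0.28 ± 0.10 (SE)), WARS2 (-0.26 ± 0.13 (SE)), SARS2 (-0.25 ± 0.11 (SE)), MARS2 (-0.18 ± 0.15 (SE)), AARS2 (-0.11 ± 0.09 (SE)) and RARS2 (-0.10 ± 0.13 (SE)) had negative ones. SARS2 had 92.9, 42.7, 25.2 and 69.2 CPM in DMSO libraries 1 to 4 and 65.5, 125, 36.03 and 28.1 CPM at 40, 60, 80 and 100 µM, and this most GC-rich mitochondrial member was highest at 60 µM. At 40 µM, where the fit with the GC slope put SARS2 lower, its level without that covariate lay inside the DMSO range. YARS2 had 38.9, 33.1, 28.99 and 39.7 CPM in DMSO libraries 1 to 4 and 34.6, 16.7, 27.3 and 25.3 CPM at 40, 60, 80 and 100 µM, with both high doses below the DMSO range. PARS2 had 13.6, 10.5, 6.17 and 12.4 CPM in DMSO libraries 1 to 4 and 18.2, 17.2, 11.04 and 10.2 CPM at 40, 60, 80 and 100 µM, so the 40 and 60 µM libraries were highest. HARS2 had 25.2, 30.5, 31.3 and 37.3 CPM in DMSO libraries 1 to 4 and 27.4, 14.5, 36.2 and 35.7 CPM at 40, 60, 80 and 100 µM. HARS2 had its high doses inside the DMSO range. FARS2 had 40.8, 29.1, 14.2 and 26.2 CPM in DMSO libraries 1 to 4 and 40.9, 36.9, 23.95 and 22.9 CPM at 40, 60, 80 and 100 µM. MARS2 had 12.2, 13.2, 13.8 and 12.4 CPM in DMSO libraries 1 to 4 and 9.58, 3.54, 13.00 and 9.74 CPM at 40, 60, 80 and 100 µM. FARS2 spread widely within DMSO, while MARS2 lay within 12.2 to 13.8 CPM there. NARS2 had 12.9, 21.2, 25.7 and 17.97 CPM in DMSO libraries 1 to 4 and 12.3, 2.58, 17.01 and 15.5 CPM at 40, 60, 80 and 100 µM. WARS2 had 18.3, 26.1, 27.8 and 17.7 CPM in DMSO libraries 1 to 4 and 12.2, 3.06, 20.1 and 19.9 CPM at 40, 60, 80 and 100 µM. RARS2 had 8.41, 11.3, 13.8 and 10.8 CPM in DMSO libraries 1 to 4 and 4.23, 0.966, 10.3 and 11.7 CPM at 40, 60, 80 and 100 µM. These last 3, all under 45% GC, were at or below 3.06 CPM at 60 µM. AARS2 had between 40.4 and 78.1 CPM over the 8 libraries, highest at 60 µM.

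HARS and HARS2 lie head to head on chromosome 5 and overlap by 599 bases on opposite strands, so part of their reads may be shared. HARS also overlaps WDR55 by 952 bases, and HARS2 overlaps ZMAT2, on the same strand, by 612 bases. Among other members called at the high doses, EARS2 overlaps UBFD1 by 370 bases and YARS overlaps S100PBP by 1387 bases. UBFD1 held 25422 counts over the 8 libraries against 14193 for EARS2. HARS fell at the high doses while HARS2 did not pass the test and had a positive value (0.21 ± 0.15 (SE)). The window of HARS holds the RefSeq starts of both genes, and is shown with matches to the ETS motif CCGGAAGT, read on both strands, in capitals. The same 2 matches lie in the window of HARS2, and the motif was in 4.14% of all windows.
HARS, chr5:140691321-140691620, minus strand, motifs 84 and 9 bases upstream of the start: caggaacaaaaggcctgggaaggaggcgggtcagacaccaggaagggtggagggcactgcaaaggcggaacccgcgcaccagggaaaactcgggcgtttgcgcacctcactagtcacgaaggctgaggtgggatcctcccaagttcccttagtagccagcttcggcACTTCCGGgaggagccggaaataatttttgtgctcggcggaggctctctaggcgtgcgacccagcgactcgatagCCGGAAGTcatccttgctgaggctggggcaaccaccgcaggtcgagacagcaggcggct

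The ETS motif was also in CARS, NARS, TARS and WARS of the ATF4 list and in EARS2 and PARS2 of the mitochondrial members. The palindromic NRF1 motif, searched the same way and found in 1.24% of windows, was in MARS2 alone among the 30 members with a window. NRF1 and ETS factors such as GABPA are known activators of nuclear genes for mitochondrial proteins. No match says only that these letters are not in this window.

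Set side by side by amino acid, the cytosolic gene had the higher log2 fold change in 11 of 14 pairs at 80 and 100 µM with the GC slope, with a median difference of 0.42 between members of a pair. It was also higher in 11 of 14 over all 4 doses with the GC slope (median 0.26) and in 8 of 14 without it (median 0.18). These fits share their DMSO libraries, and the pairs are not replicates, so no test is given. CARS over CARS2 differed most in this direction, by 0.89 on the log2 scale at the high doses, followed by MARS over MARS2 (0.75) and AARS over AARS2 (0.70). VARS under VARS2 (-0.82), HARS under HARS2 (-0.55) and RARS under RARS2 (-0.22) were the 3 pairs in the other direction. In 9 of the 14 pairs the cytosolic transcript had the lower GC content.

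The median log2 deviation of the cytosolic members minus that of the mitochondrial members was -0.10, -0.10, 0.06 and 0.09 in DMSO libraries 1 to 4, and -0.23, -0.30, 0.19 and 0.37 at 40, 60, 80 and 100 µM. All 4 lenvatinib libraries lay outside the DMSO range, the lower 2 doses below it and the higher 2 above it. The direction at 40 and 60 µM was opposite to that at 80 and 100 µM on this scale, which has no GC correction. The median GC content was 47.7% for cytosolic and 50.8% for mitochondrial members. In the edgeR fit of each dose with the GC slope, the direction at 40 and 60 µM turned: the median log2 fold change was -0.26 for cytosolic and -0.31 for mitochondrial members at 40 µM, and -1.21 and -1.45 at 60 µM. It was -0.00030 for cytosolic and -0.27 for mitochondrial members at 80 µM, and -0.05 and -0.37 at 100 µM. Over all tested genes the medians were -0.10, -0.71, -0.03 and -0.04 at 40, 60, 80 and 100 µM. The cytosolic median was thus the higher at all 4 doses in these fits, which share their DMSO libraries. At 40 µM the gap was under the SD over DMSO libraries of the uncorrected difference (0.105). At 40 and 60 µM the fit extends the DMSO trend with GC content beyond its range. For the ATF4 list minus the other cytosolic members, the same difference was -0.30, 0.12, 0.31 and -0.17 in DMSO libraries 1 to 4, and -0.10, -0.31, 0.88 and 0.73 at 40, 60, 80 and 100 µM. Here the 80 and 100 µM libraries lay above all DMSO libraries, 40 µM lay within their range, and 60 µM lay just below it. With the GC slope the ATF4 list had the higher median also at 40 µM (-0.13, against -0.46 for the other cytosolic members) and at 60 µM (-1.15, against -1.27). The same limit of range holds for these 2 doses. The DMSO values followed their GC slopes: library 3, with the lowest slope, had the highest difference and library 1 the lowest.

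**Figure D4:**
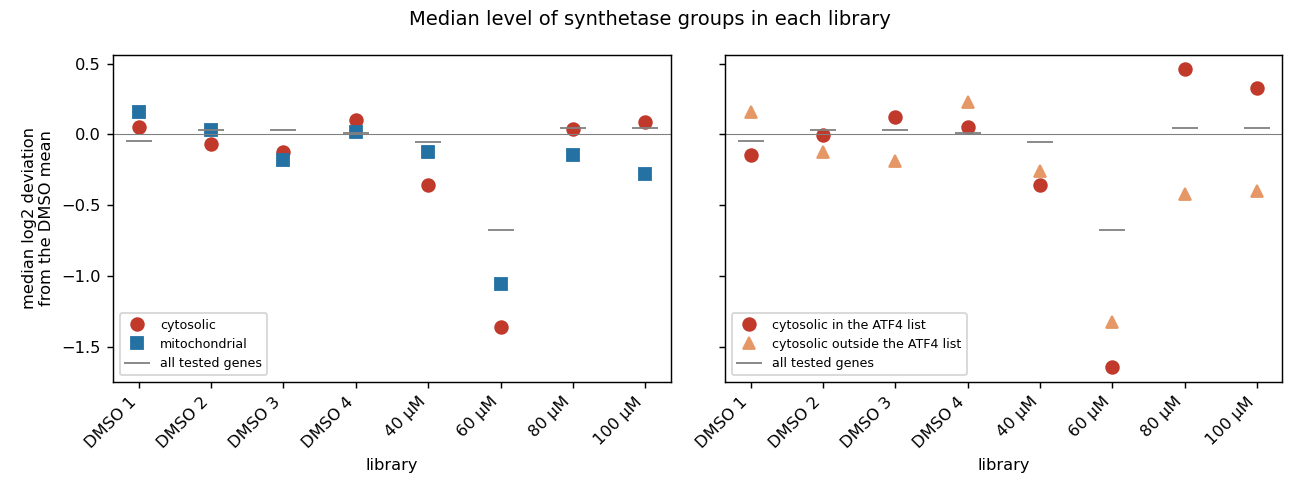
Median log2 deviation from the DMSO mean (vertical axis) in each of the 8 libraries (horizontal axis), for cytosolic and mitochondrial members (left) and for cytosolic members in and outside the ATF4 list (right). Grey dashes are the median of all tested genes. At 60 µM all groups are low (-1.36 for cytosolic and -1.06 for mitochondrial members), and at 80 and 100 µM the ATF4 list stands at 0.46 and 0.33 while the other cytosolic members stand at -0.42 and -0.40.

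Grouped by structure or assembly, the members moved in both directions. At 80 and 100 µM with the GC slope, the 19 class I enzymes had 4 called higher and 5 called lower (median -0.12), and the 18 class II enzymes had 2 higher and 5 lower (median -0.14). The 8 cytosolic members of the multisynthetase complex, an assembly that holds these enzymes on scaffold proteins, had 1 called higher (MARS) and 1 called lower (KARS), with a median of -0.09. The 12 cytosolic members outside the complex had 4 higher and 3 lower, with a median of 0.05. Of the scaffold genes, AIMP2 fell (-0.43 ± 0.07 (SE), edgeR adjusted p = 0.00613), while AIMP1 (-0.21 ± 0.20 (SE)) and EEF1E1 (-0.34 ± 0.14 (SE)) were not called.

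Genes around the family moved as follows in the same fit, where 9.67% of genes were called higher and 11% lower. Of 14 sensors and regulators, 5 rose and 1 fell. ASNS had 149.5 and 105 CPM at 80 and 100 µM, against 46.8, 38.4, 29.95 and 50.9 CPM in DMSO libraries 1 to 4. ASNS had 61.8 and 80.8 CPM at 40 and 60 µM, above the DMSO range at all 4 doses, with a log2 fold change at the high doses of 1.83 ± 0.17 (SE) and an edgeR adjusted p of 0.0022. ATF4 had 313 and 267 CPM at 80 and 100 µM, against 168, 167, 153 and 154 CPM in DMSO libraries 1 to 4. ATF4 had 242 and 354 CPM at 40 and 60 µM, all 4 doses again above DMSO, and its log2 fold change was 0.90 ± 0.08 (SE) with an edgeR adjusted p of 0.00123. CHAC1 (1.16 ± 0.29 (SE)) and SESN2 (0.68 ± 0.14 (SE)) rose, as did PPP1R15B (0.31 ± 0.09 (SE)), a subunit of an eIF2α phosphatase. SESN2 had 63.6 and 45.7 CPM at 80 and 100 µM, against 27.1 to 56.8 CPM in DMSO, so its 100 µM library lay inside that range. PPP1R15B had 109.9 and 102.5 CPM at these doses, both inside its DMSO range of 36.2 to 120.6 CPM. GCN1, a partner of the kinase GCN2, fell (-0.24 ± 0.07 (SE)). It had 385 and 364 CPM at 80 and 100 µM, against 373 to 714 CPM in DMSO.

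The kinase genes EIF2AK4, EIF2AK3, EIF2AK1 and EIF2AK2 lay between 0.04 and 0.16 on the log2 scale and were not called, nor were IMPACT, DDIT3, TRIB3 and PPP1R15A. At 80 and 100 µM TRIB3 (92.1 and 78.9 CPM) and DDIT3 (5.83 and 4.39 CPM) lay inside their DMSO ranges. CHAC1 was highest at 60 µM: CHAC1 had 4.10, 3.43, 2.28 and 5.80 CPM in DMSO libraries 1 to 4 and 9.92, 55.5, 8.44 and 5.64 CPM at 40, 60, 80 and 100 µM. TRIB3 and SESN2 were also highest at 60 µM, with 439 and 181 CPM, against 49.9 to 152 and 27.1 to 56.8 CPM in DMSO. DDIT3 was lowest there, with 0.966 CPM. Of the 14 sensors and regulators, 6 had a positive and 8 a negative log2 fold change at 60 µM without the GC slope. Of 3 genes of tRNA delivery and export, the tRNA exporter XPOT rose (0.48 ± 0.08 (SE), edgeR adjusted p = 0.00686). The mitochondrial elongation factor TUFM fell (-0.45 ± 0.07 (SE), edgeR adjusted p = 0.00576). The cytosolic elongation factor EEF1A1 was not called (0.27 ± 0.09 (SE)). XPOT had 188.2 and 168.3 CPM at 80 and 100 µM, inside its DMSO range of 55.3 to 188.4 CPM. TUFM had 493 and 515 CPM at these doses, against 498 to 1332 CPM in DMSO. Without the GC slope 0 of these 3 genes were called. Of 10 further genes of aminoacylation and editing (TARSL2, AARSD1, DTD1, DTD2, PSTK, SEPSECS, MTFMT, GATB, GATC and QRSL1), 0 were called by edgeR and 3 had an unadjusted p under 0.05. GATB, a subunit of the amidotransferase that makes mitochondrial glutaminyl-tRNA, had -0.31 ± 0.11 (SE) (edgeR adjusted p = 0.0807).

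Taken singly with the GC slope, the high doses gave fewer calls. At 80 µM 11 members were called, 5 higher and 6 lower, beside 11.4% of genes (4.22% higher and 7.15% lower), and at 100 µM 4 members were called, 2 higher and 2 lower, beside 6.19% of genes (2.09% higher and 4.1% lower). These fits share their libraries with the fit of both doses, so they are no separate evidence for its 16 calls. AARS had 0.70 ± 0.08 (SE) at 80 µM and 0.39 ± 0.08 (SE) at 100 µM, and MARS had 0.63 ± 0.09 (SE) and 0.43 ± 0.09 (SE) at these doses. FARSA had -0.49 ± 0.08 (SE) at 80 µM and -0.44 ± 0.08 (SE) at 100 µM, and VARS had -0.50 ± 0.08 (SE) and -0.41 ± 0.08 (SE). CARS (0.69 ± 0.12 (SE)), GARS (0.56 ± 0.09 (SE)), KARS (-0.66 ± 0.13 (SE)) and EARS2 (-0.64 ± 0.12 (SE)) were called at 80 µM, and at 100 µM had 0.49, 0.37, -0.51 and -0.43. The difference between the 2 doses was not tested, as each has 1 library.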

How the data were processed

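How RNA was selected, whether libraries keep strand, the tools' versions and the gene annotation behind the table were not given in the sources used here. Groups were taken from the labels. Per the submitters' processing notes, FastQC, HISAT2, bedtools and StringTie were used with the GRCh38 build. Per the file headers, the table deposited by the authors holds counts, TPM and FPKM. The deposited counts are whole numbers and were the input of every test. The deposited TPM values were used for levels between genes. The deposited FPKM values were used only to check that TPM is a constant multiple of FPKM in each library.

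Tests were run in edgeR 4.0.16 (R 4.3.3) as quasi-likelihood F-tests with robust dispersions and TMM factors, on 11827 genes that averaged 1 CPM or more. Benjamini-Hochberg adjustment ran over all tested genes, and genes under 0.05 were called. Other tools were DESeq2 1.42.0 and limma-voom 3.58.1. GC content is that of the longest GENCODE v29 transcript, and the GC slope of each library was computed on log2 CPM with a prior count of 2. The dose slope is per 20 µM, centred at 70 µM. CPM in the text are TMM-scaled. 3 counts correspond to 0.0802 to 0.295 CPM and cover counting error only. Of the 37 members, 26 have the same position in GENCODE v29 as in the table. The fits were tested on simulated data. Alternatives were other scalings, tools, filters and covariates, a replicate block, and leaving out each library.

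The members, lists and tests were chosen with earlier results of these data known. Members called in any fit, the 4 highest and 3 lowest of each compartment with the GC slope, and members not overlapping DMSO are given in every library, except that the values of 1 member are not reported here; it is counted in all totals. The fit of 80 and 100 µM with the GC slope was first listed as an alternative and became a result of its own after the data were seen.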

Additional observations from a re-analysis of the deposited data

Results flagged for a closer look

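In 74 groups of 4 libraries (37 members in 2 arms), 1 had a library far from the rest: KARS at 60 µM, with 55.7 CPM against 138 to 155 CPM in the other 3 lenvatinib libraries (gap over range 0.831, just past the 95% critical value of Dixon's test for 4 values). Chance flags about 1 in 20 such groups. The 60 µM library also had the fewest counts (10181973) and the highest GC slope (1.82), and their part in this value was not tested.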

How the results depend on the processing

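Over all 4 doses without the GC slope, the count of called members was 0 under every alternative run. With the GC slope it was 7 with DESeq2 size factors (beside 8.43% of genes), 14 with DESeq2 (17.2%) and 16 with only 80 and 100 µM (20.7%). It was 20 with the first component within arms in place of the slope (beside 48.5% of genes). With 1 library left out it was 0 to 15, beside 0% to 23.3% of genes. At 80 and 100 µM the 16 calls became 0 without the GC slope, beside 0% of genes. They became 6 to 15 with 1 DMSO library left out (6.69% to 20% of genes), and were fewer without the 80 or the 100 µM library. Under the other scalings, tools and filters they lay between 13 and 19, beside 15% to 28.7% of genes. At single doses with the GC slope the counts were 2 at 40 µM, 11 at 80 µM and 4 at 100 µM. At 60 µM the count was 0 with limma-voom and 0 to 21 with 1 DMSO library left out. For the dose slope it was 0 throughout.

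The cytosolic minus mitochondrial median log2 fold change was 0.09 over all doses, -0.021 to 0.44 with 1 library left out (0.44 without DMSO library 3, 0.29 without 40 µM and -0.021 without 80 µM), 0.20 with only 80 and 100 µM and 0.30 with these and the GC slope. FARS2 over all doses with the GC slope (-0.09) turned to 0.018 with library totals, 0.13 with the replicate block, 0.16 with only 80 and 100 µM, 0.20 with the first component, and 0.093 and 0.0027 without DMSO library 1 and the 60 µM library. With the first component GARS turned to -0.49, HARS2 to -0.21, FARSA to 0.088 and SARS2 to 0.040. VARS2 at 60 µM turned to -0.37 with the GC slope. The cause was not tested.

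The lenvatinib numbers in the titles stand for doses. The deviations of same-numbered libraries from their arm means correlated at 0.627, -0.464, 0.843 and -0.608. The main axis between libraries followed GC content, so these values cannot tell whether the numbers pair the libraries. With the replicate block the count of called members was 0 without and 0 with the GC slope, where 232 genes were called against 386 without the block. Scaling by library totals moved the all-gene median at 60 µM to -1.57 on the log2 scale, against -0.74 with TMM factors. The 60 µM library limits what can be read of low members, as NARS shows with 2 reads.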
